A study of Mus musculus with 2 samples.

Results

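The genes described here encode enzymes that add or remove methyl groups on histones outside the Polycomb complex PRC2, together with shared subunits of the H3K4 methyltransferase complexes. They were chosen by symbol: the Kdm, Setd, Prdm, Prmt, Suv39h, Suv420h, Ehmt and Mll genes, plus Wbp7, Ash1l, Ash2l, Dot1l, Nsd1, Whsc1, Whsc1l1, Wdr5 and Carm1, without Kdm6b. The rule found 64 of the 20373 genes listed in the deposited tables, and 63 of them are described. Their transcripts were measured by RNA sequencing in neurons (1 library) and in neural progenitor cells, NPCs (1 library), both taken by cell sorting from mouse cortex at embryonic day 15.5. All embryos carried a Nestin-GFP and a DCX-mRFP transgene. Neurons were the cells with both colours and NPCs the green cells, so each population is defined by reporter fluorescence and not by position or division. The series relates these transcriptomes to polymerase pausing and to the bivalent marks of histone H3. The question taken up here is which writers and erasers of histone methylation differ in transcript level between the daughter neurons and their progenitors.

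Histone lysine methylation is written by enzymes with a SET domain, and on H3K79 by DOT1L, which has none. Flavin-dependent and JmjC-domain enzymes erase it. H3K4 trimethylation marks active and poised promoters, H3K9 methylation marks heterochromatin, H3K36 methylation follows transcribed gene bodies and H4K20 methylation follows replication. Bivalent promoters of developing tissue carry H3K4 and H3K27 methylation together, so H3K4 writers and erasers and the H3K27 demethylase UTX act on the marks the series is about. Many PRDM proteins work as sequence-specific transcription factors, and only some of them have a reported methyltransferase activity.

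The PRDM genes gave the widest differences in this set, and the promoters of 3 of them are shown. With 1 CPM added to both levels, Prdm8 had the highest neuron to NPC ratio and Prdm16 the lowest among members past 1 CPM in at least 1 library. Prdm13, under 1 CPM in both libraries, had 0 reads in neurons and 9 in NPCs and is not an extreme on that scale. The sequences are the 250 bases before the RefSeq start, on GRCm38.p6 and read along the gene's strand, with CG in capitals. As a check of the start, the last 20 bases of the listed stretch, not printed here, were sought in the gene's annotated transcripts. They were found for Prdm16 and Prdm13 but not for Prdm8, whose start is thus less certain. CG is the dinucleotide that the CXXC domains of MLL1, KDM2A and KDM2B bind when it is unmethylated. The authors' files are of another build, mm9, and carry no coordinates.
Prdm8, chr5:98180619-98180868, plus strand: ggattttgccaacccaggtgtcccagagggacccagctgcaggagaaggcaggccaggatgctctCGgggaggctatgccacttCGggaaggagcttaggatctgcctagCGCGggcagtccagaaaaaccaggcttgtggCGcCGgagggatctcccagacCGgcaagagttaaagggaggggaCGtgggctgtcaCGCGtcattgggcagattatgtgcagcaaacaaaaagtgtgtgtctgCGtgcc
Prdm16, chr4:154636874-154637123, minus strand: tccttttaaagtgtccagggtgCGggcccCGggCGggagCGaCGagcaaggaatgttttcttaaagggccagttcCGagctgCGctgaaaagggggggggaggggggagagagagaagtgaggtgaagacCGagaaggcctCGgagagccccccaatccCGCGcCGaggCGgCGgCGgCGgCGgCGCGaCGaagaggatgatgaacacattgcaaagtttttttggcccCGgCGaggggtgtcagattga
Prdm13, chr4:21685964-21686213, minus strand: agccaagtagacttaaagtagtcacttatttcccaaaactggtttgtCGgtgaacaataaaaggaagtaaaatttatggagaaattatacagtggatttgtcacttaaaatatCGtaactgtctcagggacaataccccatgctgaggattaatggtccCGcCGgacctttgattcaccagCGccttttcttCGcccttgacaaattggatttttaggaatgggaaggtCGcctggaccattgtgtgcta
The Prdm8 stretch holds 11 CG, and 38.0% of the 27025 genes in the promoter table hold as many or more. The Prdm16 stretch holds 22 (16.3% of genes) and the Prdm13 stretch 7 (48.6%). CG reads the same on both strands. Of the 63 members described, 48 matched the table. Their median was 21.5 CG, against 6 over all genes of the table, which include non-coding ones (for a gene with several listed starts, the start with most CG was counted).

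Levels are given in CPM, counts per 1000000, on the authors' scaling between the libraries. The neuron library held 23312054 recovered reads and the NPC library 26346226. Members took 0.940% of the reads in neurons and 1.04% in NPCs. Folds are ratios of CPM values with an exact 95% Clopper-Pearson counting interval in parentheses, which covers counting error only. Log2 ratios are log2((neuron CPM + 1)/(NPC CPM + 1)), so a positive value means higher in neurons. Counts of genes past a fold threshold use these log2 ratios with 1 CPM added, which shrinks the fold of low genes. With 1 library of each population no difference has a replicate check, no test was made, and "higher" and "lower" compare these libraries.

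The populations matched their labels by marker sums, with signs of other cells on both sides. Nes was at 189.5 CPM in neurons and 408.5 in NPCs, and Dcx at 3294.4 in neurons and 2522.3 in NPCs. The 7 neuron markers found summed to 8753.4 CPM in neurons and 5658.9 CPM in NPCs. All 7 were higher in neurons, but only 2 at least 2-fold, so neuron transcripts were abundant in the NPC library too. All 8 radial glia markers, all 4 intermediate progenitor markers and 7 of 8 mitosis and replication markers were at least 2-fold lower in neurons. Their summed levels were 617.8, 601.1 and 647.6 CPM in neurons, against 1710.7, 1743.5 and 1837.0 CPM in NPCs. Pericyte, endothelial and oligodendrocyte lineage markers summed to 8.34, 1.85 and 2.81 CPM in neurons, against 170.6, 13.9 and 76.8 CPM in NPCs, and all 15 were lower in neurons. Microglia and Cajal-Retzius markers summed to 83.2 and 465.1 CPM in neurons, against 19.9 and 110.9 CPM in NPCs, with 5 of 5 and 4 of 5 higher in neurons. Interneuron and erythroid markers summed to 205.4 and 83.7 CPM in neurons, against 284.7 and 90.5 CPM in NPCs. No marker found was at 0 in both libraries. The part of these cells in the differences below was not tested, and in bulk samples fewer cells of a type and less RNA per cell cannot be told apart.

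Histone methylation genes were close to equal between the 2 libraries. Of the 63 members described, 58 reached 1 CPM in at least 1 library and 54 reached 10 CPM. Past the filter, 0 members were at least 2-fold higher in neurons, where 3.85% of all 12693 genes were. At least 2-fold lower in neurons was 1 member (1.72%), Prdm16, against 6.73% of all genes. Prdm12, at the edge of detection, was 2.45-fold lower (1.16 to 5.63) with nothing added and falls short of the threshold with 1 CPM added. At a smaller threshold of 1.3-fold, chosen after the values were seen, 3 members (5.17%) were higher in neurons, namely Prdm8, Prmt2 and Setd6, against 17.2% of all genes. Setd4 was 1.31-fold higher with nothing added and is not among them. At that threshold 3 members (5.17%) were lower in neurons, namely Prdm16, Kdm6a and Prdm12, against 19.3% of all genes. Within 1.3-fold lay 52 members, or 89.7%, against 63.4% of all genes. Among genes at 10 CPM or more these shares were 90.7% and 68.5%. The middle 50% of members ran from a log2 ratio of −0.17 to 0.10, and that of all genes from −0.26 to 0.24.

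**Figure D1:**
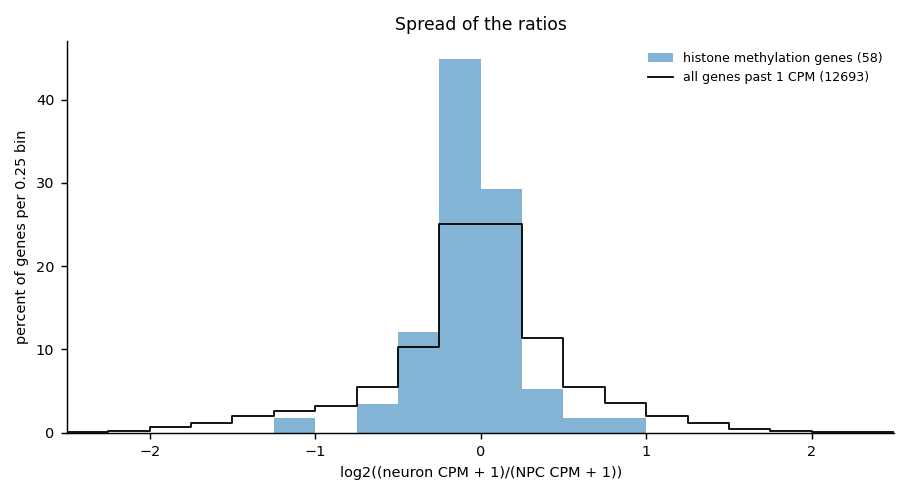
Percent of genes in each bin of 0.25 of the log2 ratio, neuron over NPC with 1 CPM added, for 58 histone methylation genes (bars) and all 12693 genes past 1 CPM (line). The bars are concentrated next to 0, with 1 gene below −1 and none above 1.

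The small differences leaned to one side. Lower in neurons were 36 of 58 members (62.1%), against 50.7% of all genes, and 22 members (37.9%) were higher, against 49.3%. The median log2 ratio was −0.04 over members and −0.00 over all genes. The counting interval lay below 1 for 26 members, above 1 for 14 and on both sides of 1 for 18. The same split was not counted over all genes, and at high read numbers very small differences clear the interval. By residue, the medians were −0.08 for H3K4, −0.15 for H3K9, −0.10 for H3K36, 0.04 for H4K20 and 0.10 for arginine. Scaling by total reads in place of the authors' scaling moves log2 ratios by −0.07, and by less for genes of low level, which turns the sign of the H4K20 median and of 5 members.

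**Figure D2:**
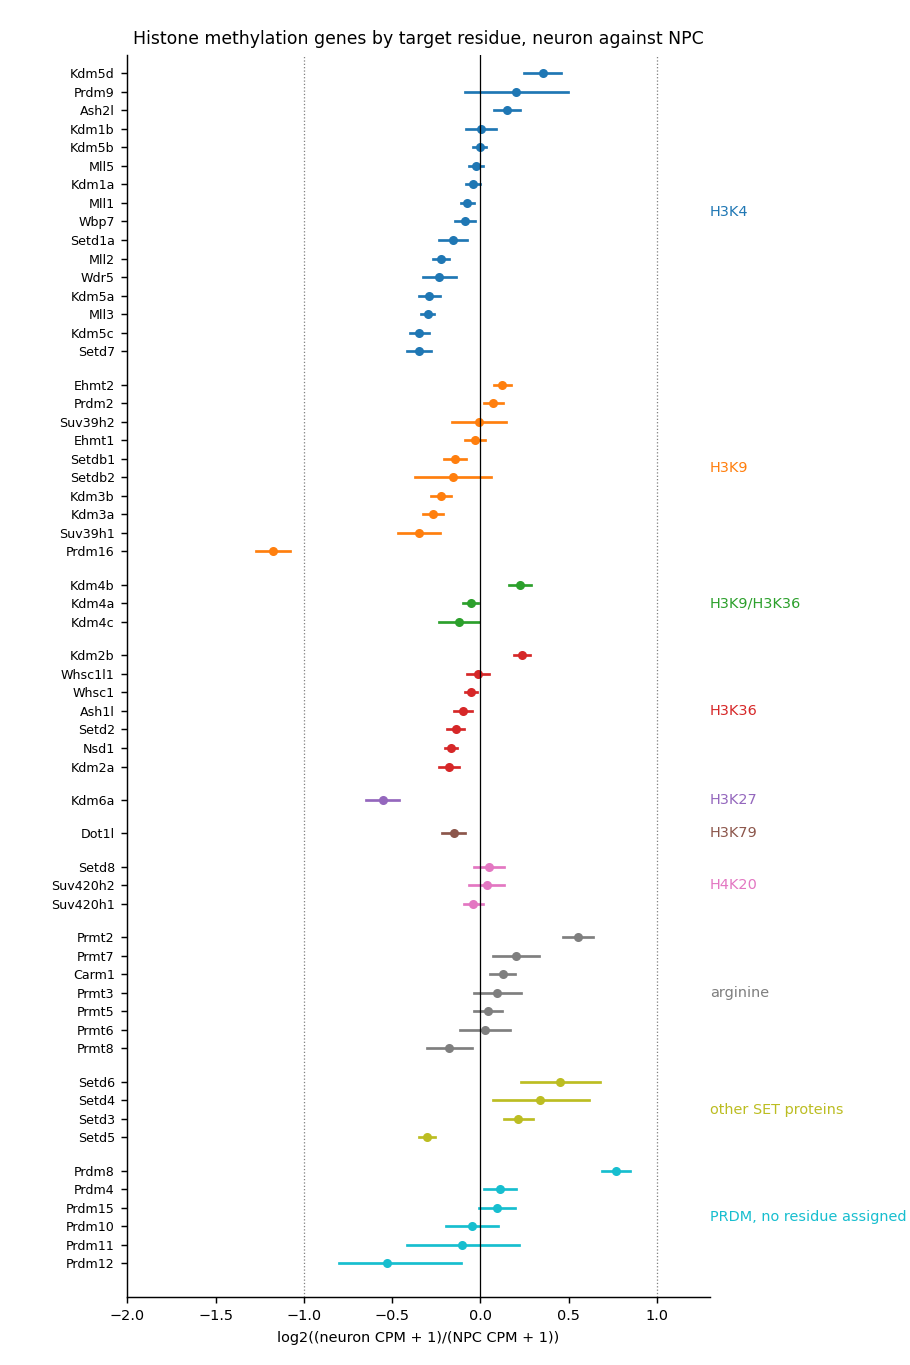
Log2 ratio, neuron over NPC with 1 CPM added, of each of the 58 members past 1 CPM, grouped and coloured by target residue. Points are the 1 value per gene, horizontal lines the 95% counting intervals, and dotted lines mark 2-fold. Prdm8 lies farthest right at 0.77, and Prdm16 farthest left at −1.17.

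H3K4 writers were slightly lower in neurons, and the catalytic subunits of the COMPASS-type complexes were lower without exception. All 5 measured ones, Mll1, Mll2, Mll3, Wbp7 and Setd1a, had a ratio below 1, as had 50.7% of all genes. Their median log2 ratio was −0.16. These 5 genes have 6.61 to 19.83 kb of exon, a length at which most members were lower in neurons. Target residue and exon length cannot be told apart here. The largest difference among the 5 genes was that of Mll3 (KMT2C), which writes H3K4 monomethylation at enhancers. Mll3 was at 399.9 CPM in neurons and 492.4 CPM in NPCs, 1.23-fold lower in neurons (1.20 to 1.26). Its enhancer partner Mll2 was at 330.1 CPM in neurons and 385.3 CPM in NPCs, 1.17-fold lower (1.13 to 1.20). The symbol Mll2 has been used for KMT2B and for KMT2D, and is taken as KMT2D because Wbp7, a name of KMT2B, stands on its own row. Mll1 (KMT2A), which keeps developmental genes active, was at 539.9 CPM in neurons and 568.1 CPM in NPCs (1.05-fold lower). Wbp7 was at 199.9 and 212.2 CPM in neurons and NPCs (1.06-fold lower). Setd1a, of the complex that trimethylates most promoters, was at 103.4 CPM in neurons and 115.2 CPM in NPCs, with 53.7% of its exon bases overlapped by other genes. Setd7, a monomethyltransferase with many non-histone substrates, was the H3K4 writer farthest from equal, at 124.2 CPM in neurons and 158.3 CPM in NPCs (1.28-fold lower, 1.22 to 1.34). Mll5, a SET-domain protein whose methyltransferase activity is doubtful, differed by less than counting error (407.5 CPM in neurons and 414.7 CPM in NPCs), and 13.3% of its exon bases are overlapped by another gene.

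The shared subunits went opposite ways. Wdr5, the scaffold that presents the H3 tail, was at 67.3 CPM in neurons and 79.3 CPM in NPCs (1.18-fold lower, 1.10 to 1.26). Ash2l, which completes the active core, was at 130.8 CPM in neurons and 117.8 CPM in NPCs (1.11-fold higher, 1.06 to 1.17). Of 10 other COMPASS and MLL partners, 8 (80.0%) were lower in neurons and 2 higher, where 50.7% of all genes were lower. Among the lower ones, the intervals of Ncoa6, Wdr82 and Men1 hold equality. The median log2 ratio was −0.09, and all 10 lay within 1.3-fold, against 63.4% of all genes. The core subunit gene Rbbp5 was at 63.9 CPM in neurons and 73.4 CPM in NPCs. Psip1, which tethers MLL1 to chromatin, was at 294.6 and 350.7 CPM in neurons and NPCs, and Hcfc2, a host cell factor relative, at 34.6 and 28.3 CPM.

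H3K4 demethylases split by gene. The flavin enzyme gene Kdm1a (LSD1) was at 364.8 CPM in neurons and 375.5 CPM in NPCs, and its relative Kdm1b (LSD2) at 86.2 and 86.0 CPM. Neither differed by more than counting error. Per kilobase of exon, which allows levels to be set beside each other, Kdm1a stood at 118.9 CPM per kb in neurons and 122.4 in NPCs, against 17.3 and 17.2 for Kdm1b. Among the JmjC enzymes that remove trimethylation, Kdm5b was equal in the libraries (471.4 CPM in neurons and 472.2 CPM in NPCs). Kdm5a was 1.22-fold lower in neurons (174.0 CPM in neurons and 212.8 CPM in NPCs, interval 1.17 to 1.27). Kdm5c, the X-linked family member whose loss causes intellectual disability in humans, was at 190.9 CPM in neurons and 242.9 CPM in NPCs (1.27-fold lower, 1.22 to 1.32). Its Y-linked counterpart Kdm5d was at 65.4 CPM in neurons and 51.0 CPM in NPCs (1.28-fold higher, 1.19 to 1.38), so the X and Y copies differed in opposite directions.

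The sex-chromosome members were set beside their neighbours, a choice made after their values were seen. On the X, Kdm6a, Kdm5c and Suv39h1 had log2 ratios of −0.55, −0.35 and −0.35. The median of 431 X-linked genes past the filter was −0.07, with 56.6% lower in neurons, against −0.00 and 50.5% for 12000 genes of the other chromosomes except the Y. Of the Y-linked genes, Eif2s3y was at 47.3 CPM in neurons and 34.2 CPM in NPCs, and Uty at 24.1 and 22.6 CPM. Ddx3y went the other way, at 37.8 CPM in neurons and 43.4 CPM in NPCs. The interval of Uty holds equality (0.947 to 1.20). The labels do not give the sexes of the embryos, and the part of sex composition in these values was not tested.

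LSD1 works in a complex with CoREST proteins and histone deacetylases that silences neuronal genes outside neurons. Of 11 partners, 7 (63.6%) were lower in neurons and 4 higher, where 50.7% of all genes were lower. Their median log2 ratio was −0.19, with 0 at least 2-fold apart. The deacetylase gene Hdac1 was at 65.8 CPM in neurons and 99.7 CPM in NPCs (log2 ratio −0.59), while Hdac2 was at 344.6 and 315.5 CPM. Hmg20b, an HMG-box subunit, was at 19.5 CPM in neurons and 29.4 CPM in NPCs. Rest, the repressor that recruits the complex, was at 10.8 CPM in neurons and 14.4 CPM in NPCs. Mitosis and replication markers were lower in neurons too, with a median log2 ratio of −1.37, and their part was not tested.

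The single H3K27 member, Kdm6a (UTX), showed the largest lower value among the lysine enzymes outside the PRDM family. This X-linked demethylase sits in the MLL3 and MLL4 complexes. Kdm6a was at 65.5 CPM in neurons and 96.7 CPM in NPCs, 1.48-fold lower in neurons (1.38 to 1.57).

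H3K9 enzymes included Prdm16, the member with the largest absolute log2 ratio with 1 CPM added. Prdm16, a PRDM factor with reported H3K9 monomethyltransferase activity that maintains radial glia in the mouse cortex, was at 52.8 CPM in neurons and 120.4 CPM in NPCs. It was 2.28-fold lower in neurons (2.13 to 2.44), from 1203 reads in neurons and 3248 in NPCs. Radial glia markers were lower beside it, with a median log2 ratio of −1.57 against −1.17 for Prdm16.

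The other H3K9 writers lay within 1.3-fold. Suv39h1 writes H3K9 trimethylation at pericentric heterochromatin and was at 41.1 CPM in neurons and 52.6 CPM in NPCs (1.28-fold lower, 1.18 to 1.39), with 11.1% of its exon bases overlapped. Its paralog Suv39h2 did not differ beyond counting error (26.4 CPM in neurons and 26.6 CPM in NPCs). Setdb1, which KAP1 brings to retroelements, was at 157.1 CPM in neurons and 173.7 CPM in NPCs. Setdb2 was at 11.8 and 13.2 CPM, with an interval that holds equality. Ehmt1 (GLP) and Ehmt2 (G9a) form 1 enzyme that writes mono- and dimethylation. Ehmt1 was at 216.3 CPM in neurons and 220.9 CPM in NPCs, and Ehmt2 at 277.1 CPM in neurons and 254.0 CPM in NPCs (1.09-fold higher, 1.05 to 1.13). Prdm2 (RIZ1) was at 228.2 CPM in neurons and 217.1 CPM in NPCs.

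The H3K9 demethylases Kdm3a and Kdm3b were both lower in neurons. Kdm3a, a target of hypoxia signalling, was at 183.8 CPM in neurons and 221.3 CPM in NPCs (1.20-fold lower, 1.16 to 1.25). Kdm3b was at 195.9 CPM in neurons and 229.0 CPM in NPCs (1.17-fold lower, 1.12 to 1.22). Of the Kdm4 genes, which erase H3K9 and, except Kdm4d, H3K36 trimethylation, Kdm4b alone was higher in neurons (180.9 CPM in neurons and 154.6 CPM in NPCs, 1.17-fold, 1.12 to 1.22). Kdm4a was at 348.8 and 362.4 CPM in neurons and NPCs, and Kdm4c at 49.6 and 54.0 CPM. Kdm4d had 4 reads in neurons and 1 in NPCs, too few to compare. Among 12 H3K9 readers and partners, 10 (83.3%) were lower in neurons and 2 higher, where 50.7% of all genes were lower. Their median log2 ratio was −0.06. Among the lower ones, the intervals of Zfp644, Cbx3, Mphosph8 and Atf7ip hold equality. Cdyl, a chromodomain corepressor, stood apart at 5.53 CPM in neurons and 11.7 CPM in NPCs. The HP1 genes Cbx1 and Cbx5 were at 87.6 and 602.0 CPM in neurons, against 108.1 and 720.7 CPM in NPCs.

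H3K36 writers were 1.12-fold lower in neurons or closer to equal, and Whsc1l1 did not differ beyond counting error. Nsd1, mutated in human Sotos syndrome, was at 499.7 CPM in neurons and 560.8 CPM in NPCs (1.12-fold lower, 1.10 to 1.15). Its relatives Whsc1 (NSD2) and Whsc1l1 (NSD3) were at 521.1 and 168.1 CPM in neurons, against 540.9 and 169.6 CPM in NPCs. Setd2, which writes the trimethyl mark behind elongating polymerase, was at 273.4 CPM in neurons and 301.2 CPM in NPCs (1.10-fold lower). Ash1l, a dimethyltransferase that opposes Polycomb, was at 240.4 CPM in neurons and 257.0 CPM in NPCs. The 2 demethylases with a CXXC domain went opposite ways. Kdm2a was at 188.5 CPM in neurons and 213.2 CPM in NPCs (1.13-fold lower, 1.09 to 1.18). Kdm2b, which also brings a PRC1 complex to CpG islands, was at 305.9 CPM in neurons and 259.6 CPM in NPCs (1.18-fold higher, 1.14 to 1.22), with 16.2% of its exon bases overlapped by other genes. Of 10 H3K36 readers 7 (70.0%) were lower in neurons and 3 higher, where 50.7% of all genes were lower. Their median log2 ratio was −0.12. The DNA methyltransferase gene Dnmt3a was at 108.1 CPM in neurons and 163.2 CPM in NPCs, the mismatch repair gene Msh6 at 81.0 and 105.5 CPM, and the PRC2 accessory gene Phf19 at 1.19 and 5.34 CPM.

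H3K79 and H4K20 enzymes were near equal. Dot1l was at 148.1 CPM in neurons and 164.6 CPM in NPCs (1.11-fold lower, 1.06 to 1.16). Of its 4 measured partners 3 were higher in neurons and 1 lower, where 49.3% of all genes were higher. Among the 3 was Mllt3 (AF9), a reader of histone acylation, at 356.9 CPM in neurons and 272.6 CPM in NPCs. Mllt6 was at 180.2 and 156.9 CPM in neurons and NPCs, and Mllt10 at 94.0 and 111.9 CPM. The H4K20 monomethyltransferase gene Setd8 was at 87.0 CPM in neurons and 84.0 CPM in NPCs. Suv420h1 and Suv420h2, which add the next methyl groups, were at 205.7 and 65.8 CPM in neurons, against 211.4 and 64.2 CPM in NPCs. All 3 intervals hold equality. The levels of these 3 stood beside mitosis and replication markers whose sum was 647.6 CPM in neurons and 1837.0 CPM in NPCs. Of the H4K20 readers, Orc1 of the replication origin complex was at 3.03 CPM in neurons and 5.67 CPM in NPCs, L3mbtl3 at 36.4 and 38.9 CPM, and Trp53bp1 of the DNA damage response at 483.0 and 466.8 CPM.

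Arginine methyltransferase genes leaned to the neuron side, in 6 of 7 cases (85.7%), against 49.3% of all genes. Of the 6, Prmt5 and Prmt6 change sign when scaled by total reads. Prmt2 had the largest difference, at 107.4 CPM in neurons and 72.8 CPM in NPCs (1.47-fold higher, 1.39 to 1.57). Prmt7, a monomethyltransferase, was at 40.9 CPM in neurons and 35.4 CPM in NPCs (1.15-fold higher, 1.05 to 1.26). Carm1, a coactivator that methylates H3, was at 128.2 CPM in neurons and 117.4 CPM in NPCs, with 23.9% of its exon bases overlapped. Prmt5, the main symmetric dimethyltransferase, was at 102.4 CPM in neurons and 99.5 CPM in NPCs. Its interval and those of Prmt3 (38.0 CPM in neurons and 35.5 CPM in NPCs) and Prmt6 (30.7 and 30.1 CPM) hold equality. Prmt6 has 23.5% of its exon bases overlapped. Prmt8, a membrane-bound enzyme restricted to brain, was the exception at 37.2 CPM in neurons and 42.1 CPM in NPCs (1.13-fold lower, 1.04 to 1.24). The 6 partners had a median log2 ratio of −0.11, with 4 (66.7%) lower in neurons, against 50.7% of all genes. Btg1, an antiproliferative cofactor, was at 91.1 CPM in neurons and 132.7 CPM in NPCs. Smn1 and Tdrd3, Tudor-domain readers of methylarginine, were at 24.2 and 77.2 CPM in neurons, against 28.3 and 68.9 CPM in NPCs.

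SET proteins without an assigned histone residue included 3 of higher level in neurons and 1 of lower level, where 49.3% of all genes were higher. This count rests on 4 genes, and Setd4 was under 10 CPM in both libraries. Setd6, which methylates the NF-kappaB subunit RelA, was at 13.8 CPM in neurons and 9.82 CPM in NPCs (1.41-fold higher, 1.19 to 1.66). Setd4 was at 8.34 CPM in neurons and 6.38 CPM in NPCs (1.31-fold higher, 1.06 to 1.62). Setd3, the actin histidine methyltransferase, was at 103.7 CPM in neurons and 89.2 CPM in NPCs. Setd5, mutated in human intellectual disability, was the exception at 284.2 CPM in neurons and 350.2 CPM in NPCs (1.23-fold lower, 1.19 to 1.27).

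PRDM genes with no residue assigned here included the member highest in neurons. Prdm8, a factor of young cortical neurons in the mouse, was at 135.2 CPM in neurons and 78.9 CPM in NPCs. It was 1.71-fold higher in neurons (1.62 to 1.81), from 3081 reads in neurons and 2129 in NPCs, and 14.1% of its exon bases are overlapped by an antisense gene. The 7 neuron markers found had a median log2 ratio of 0.84, beside 0.77 for Prdm8. Prdm12 was at 0.439 CPM in neurons and 1.07 CPM in NPCs, from 10 and 29 reads. Prdm4, Prdm10, Prdm11 and Prdm15 lay close to equal, at 84.1, 28.0, 4.35 and 65.8 CPM in neurons, against 77.8, 28.9, 4.75 and 61.5 CPM in NPCs. The remaining 4 were near silence. Prdm13 had 0 reads in neurons, which allows up to 0.132 CPM, and 9 in NPCs. Prdm1 had 6 reads in neurons and 10 in NPCs, Prdm6 had 1 and 0, and Prdm14 had 0 in both.

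**Figure D3:**
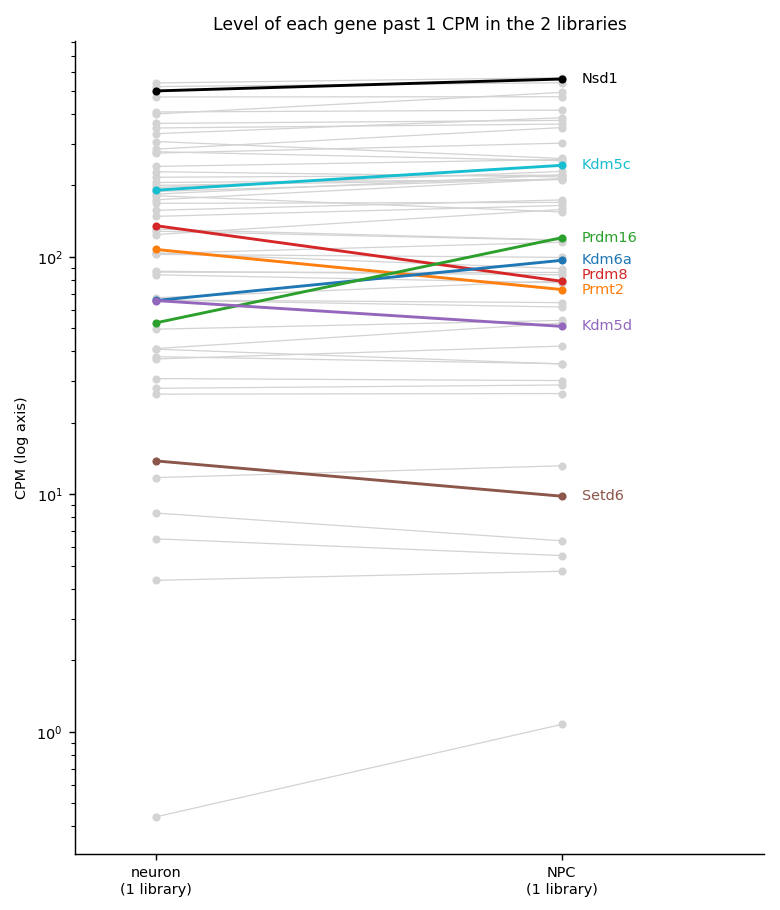
CPM on a log axis in the neuron library (left) and the NPC library (right) for each of the 58 members past 1 CPM, joined by a line per gene. Most lines are level, including that of Nsd1. Prdm16 stands at 52.8 CPM in neurons and 120.4 CPM in NPCs, while Prdm8 stands at 135.2 CPM in neurons and 78.9 CPM in NPCs.

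Pairs of related genes were compared within the libraries, because a ratio of 2 genes does not depend on the scaling between libraries. Of 17 pairs, 8 had a counting interval that holds 1, and 2 were at least 1.3 times apart. The Prdm8 to Prdm16 pair joins 2 extremes described above and restates their differences. Its ratio was 3.91 times higher in neurons than in NPCs (3.58 to 4.26). Prdm8 made up 71.9% of the reads of this pair in neurons and 39.6% in NPCs. The Kdm2a to Kdm2b ratio was 1.33 times lower in neurons (1.27 to 1.40), with Kdm2a at 38.1% of the pair's reads in neurons and 45.1% in NPCs. The Kdm5b to Kdm5c ratio was 1.27 times higher in neurons (1.21 to 1.33), and the Suv39h1 to Suv39h2 ratio 1.27 times lower (1.11 to 1.46). Smaller shifts were found for Kdm4a over Kdm4b (1.22 times lower, 1.15 to 1.28) and Ehmt1 over Ehmt2 (1.11 times lower, 1.06 to 1.17). Mll1 and Wbp7 kept their proportion, with a ratio of 1.01 (0.963 to 1.06), and so did Kdm3a and Kdm3b at 0.971 (0.918 to 1.03).

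**Figure D4:**
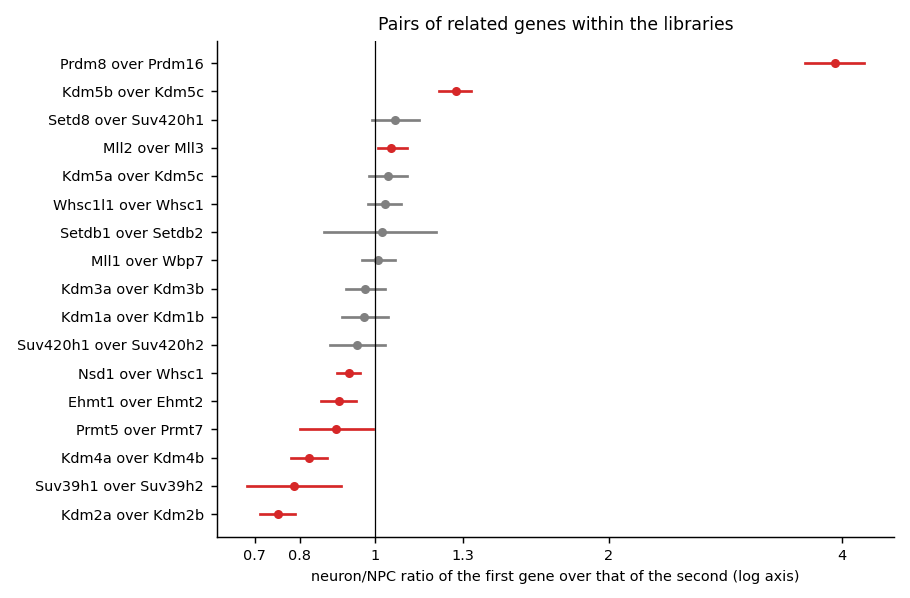
Ratio of the neuron to NPC read ratios of 2 related genes, on a log axis, with exact conditional 95% counting intervals as lines. Red marks the 9 pairs whose interval leaves out 1. Prdm8 over Prdm16 lies at 3.91, and the other 16 pairs lie between 0.750 and 1.27.

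Long genes of this set were mostly lower in neurons. Exon lengths were taken from GENCODE M21, an annotation of another build than the authors'. The arginine genes have 2.14 to 4.19 kb of exon and the COMPASS-type catalytic genes 6.61 to 19.83 kb. Target residue and length thus cannot be told apart for them. Of 16 members with 8 kb of exon or more, 1 was higher in neurons (Kdm5d), with a median log2 ratio of −0.10 against −0.03 for 1022 genes of that length. From 6 to 8 kb, 2 of 10 members were higher in neurons, with a median of −0.15 against −0.03 over all genes. From 4 to 6 kb it was 7 of 15, with medians of −0.01 for both. From 2 to 4 kb, 10 of 15 members were higher in neurons, with a median of 0.05 against −0.01 over 4820 genes. The share of all genes higher in neurons was not counted by length bin, and over all lengths it was 49.3%. Across the 58 members Spearman's rho of exon length and log2 ratio was −0.42, and across 12573 genes past the filter it was −0.03. Genes of 1 library pair are not independent replicates, so these values are a description, and the part of RNA quality was not tested.

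**Figure D5:**
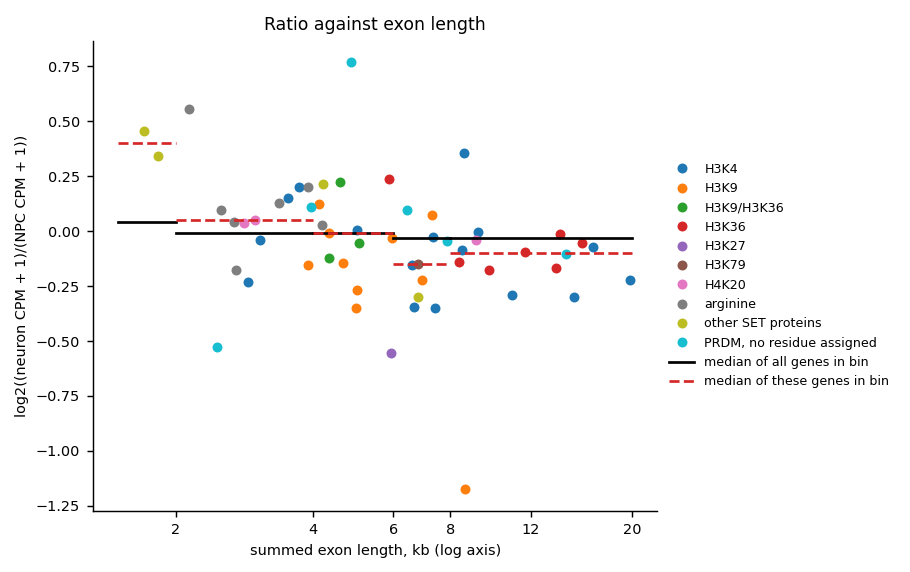
Log2 ratio, neuron over NPC with 1 CPM added, against summed exon length in kb on a log axis, 1 point per member coloured by residue. Solid lines are medians of all genes in a length bin and dashed lines medians of these genes. The dashed medians run from 0.40 in the shortest bin, which holds 2 members, to −0.15 and −0.10 in the longest bins, while the solid ones stay between 0.04 and −0.03.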

How the data were processed

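RNA-seq values of 1 neuron and 1 NPC library were used. The deposited values are a signal per gene, never below 0. Per the submitters' processing notes, CASAVA 1.9, TopHat 1.2.0, SAMtools 0.1.18, edgeR and the build mm9 were used, with no role given. For annotation, counter and strand setting, each is not given in the sources used here. Without strand, reads of a gene and of an overlapping one cannot be told apart, so values of overlapped members are uncertain.

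Values were whole multiples of 1.12797 (neuron) and 0.952727 (NPC), within 0.05 reads for 99.9902% and 100% of genes. The quotient was taken as reads. With 1 library per group no count test was possible. CPM was computed by dividing both libraries by the mean of their sums. Members and lists were chosen with earlier results of these data known. Each member past 1 CPM was named, with up to 3 genes per partner list by absolute log2 ratio. Hdac2 and the Y-linked genes were chosen after their values were seen. Prmt1, Setd1b, Map2 and Xist were not analysed here. Of the genes the rule matched, 1 is not reported here, and counts and medians over members leave it out. Symbols of 10 members were matched through older names in RefSeq. Python 3.11.15, scipy 1.17.1 and edgeR 4.0.16 (TMM, upper quartile) were used, and calculations were tested on simulated data.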

Additional observations from a re-analysis of the deposited data

How the results depend on the processing

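No paired analysis was possible because each population had 1 library, and no replicate could be left out. Scaling by total reads gave medians of −0.11 for all members, −0.15 for H3K4, −0.16 for H3K36, −0.22 for H3K79 and −0.12 for the Kdm4 genes. It left 17 members higher and 41 lower in neurons. The median over all genes moved with it, from −0.005 to −0.069. All genes were not counted by sign under that scaling. On the authors' scaling the Kdm4 median was −0.055, and 0.063 with no filter, which adds Kdm4d (4 reads in neurons and 1 in NPCs). TMM scaling changed the sign of 0 members and upper-quartile scaling of 1. Members at least 2-fold lower in neurons numbered 1 under every scaling, filter and added value tried, and 0 without the PRDM genes. At 1.3-fold 3 members were higher and 3 lower. Over all genes, 5 CPM added gave 238 higher and 399 lower, and a minimum of 10 CPM gave 548 lower. Adding 5 CPM keeps the list of genes and shrinks the folds of low genes, while a minimum of 10 CPM leaves a shorter list. All 17 pair ratios stayed within their intervals with 1 CPM added. Depth limits genes near 3 reads, 0.132 CPM in neurons and 0.111 CPM in NPCs.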

Other observations

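Histone methylation enzymes that the symbol rule leaves out were spread about as widely as all genes. Of 15 such genes, 13 passed 1 CPM, and 8 of these (61.5%) lay within 1.3-fold. Over all genes that share was 63.4%, and over the members 89.7%. In neurons 7 (53.8%) were higher and 6 lower, against 49.3% of all genes higher, with a median log2 ratio of 0.09. The genes named here are among those with the largest differences. Hr, which encodes the JmjC corepressor hairless, was at 18.0 CPM in neurons and 6.49 CPM in NPCs, 2.77-fold higher in neurons (95% counting interval 2.32 to 3.33). The SET and MYND domain genes Smyd3 and Smyd2 were at 21.6 and 26.9 CPM in neurons, against 11.8 and 16.3 CPM in NPCs. Jhdm1d (KDM7A), an eraser of H3K9 and H3K27 dimethylation, was at 102.7 CPM in neurons and 150.9 CPM in NPCs (named after its value was seen).

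Prdm9, which writes H3K4 and H3K36 trimethylation at meiotic recombination sites and is known from germ cells, was measured in both libraries. It had 148 reads (6.50 CPM) in neurons and 149 reads (5.52 CPM) in NPCs, and its interval holds equality. No exon base of Prdm9 is overlapped by another gene in GENCODE M21. Where its reads lie along the gene is not recorded in the tables.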
